A study of Mus musculus with 9 samples.

Results

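Serine synthesis and the integrated stress response were followed through 10 genes: the serine synthesis enzymes Phgdh, Psat1 and Psph, the mitochondrial one-carbon enzymes Shmt2 and Mthfd2, and the stress response genes Atf4, Asns, Ddit3, Trib3 and Chac1. They were taken by gene symbol, in a choice made with earlier results of these data known, and are 10 of the 29386 gene identifiers in the deposited tables. RNA-seq was done in mouse after loss of Setdb1, a histone lysine methyltransferase, in 3 separate experiments. In brown adipose tissue (BAT), 2 control libraries came from mice with floxed Setdb1 and no Cre (Setdb1 fl/fl; Adipoq-Cre-), and 2 came from adipocyte knockouts, named AKO, with the same floxed alleles and Adipoq-Cre+. The Adipoq promoter drives Cre in adipocytes in general, not in brown adipocytes alone, and since the controls carried no Cre, the transgene and the deletion cannot be told apart. In the second experiment, primary brown adipocytes that were all Setdb1 flox/flox; Rosa26Cre-ERT2 received ethanol vehicle (ETOH, 1 library) or 1 μM 4-hydroxytamoxifen (4-OHT, 1 library), the drug that activates Cre-ERT2; there too, drug, Cre activity and deletion cannot be told apart. In the third, primary brown adipocytes were transfected with a control siRNA (siNC, 1 library) or with siRNA against Setdb1 (siSetdb1, 2 libraries). The age and sex of the mice, the genotype of the transfected cells and whether both siSetdb1 libraries had the same siRNA are not given in the sources used here. Every BAT title, control and AKO alike, carries the codes TN and CE, which the labels do not explain and which were not interpreted.

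Cells make serine from a glycolytic intermediate in successive steps: Phgdh oxidises phosphoglycerate, Psat1 adds an amino group, and Psph removes the phosphate. In mitochondria, Shmt2 splits serine into glycine and a folate-bound one-carbon unit, which Mthfd2 oxidises further for nucleotide synthesis. In the integrated stress response, eIF2 kinases slow general translation while the mRNA of the transcription factor Atf4 is translated more, so its protein can change without its mRNA; Atf4 is known to act on genes of both groups. Brown adipocytes, rich in mitochondria, are known to raise this programme under mitochondrial and proteotoxic stress.

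The libraries and their labels were checked first. Setdb1 was at 455 and 473 normalised counts in the control BAT and at 156 and 191 in the AKO BAT (n = 2 each; the limma log2 fold change was −1.42, SE 0.19, with an adjusted p of 0.0216). It was at 783.5 with siNC and 370.9 and 399.2 with siSetdb1, where limma did not call it (log2 fold change −1.02, adjusted p = 0.0526). Its raw count was 1070 with ETOH and 620 with 4-OHT, so every library with Setdb1 loss was below its controls. Reads assigned to genes were 15979479 to 16940622 per BAT library, 17593799 to 18468152 per siRNA library, and 29911734 and 30176359 with ETOH and 4-OHT. None of the 6 brown adipocyte or 6 adipocyte markers was at 0 in any library. Marker levels differed between libraries: the 6 brown adipocyte markers summed to 11460 and 9913 CPM (reads scaled to the library total) in the controls, 10790 in AKO 1 and 7282 in AKO 2, and the 6 fibroblast and preadipocyte markers to 568, 475, 476 and 717 in the same order. In bulk tissue, fewer cells of a type and less RNA per cell cannot be told apart.

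In BAT, Psph was the only one of the 10 genes called by the main test, at 2.13-fold of control. Psat1 was higher to a like degree, 2.23-fold, but with a wider spread and without a call, and Phgdh was not higher. Chac1 was above both controls in both AKO libraries, while Mthfd2, Ddit3 and Trib3 overlapped between the groups. Atf4 was at 0.832 and Asns at 1.04 of control. A gene was called when its p-value from limma, a linear model on log2(normalised count + 1), stayed below 0.05 after Benjamini-Hochberg adjustment over the 14466 genes tested; all 10 genes passed the filter on low values. That made 1 of 10 genes called higher, against 1.0% of all genes tested, and 0 of 10 called lower, against 0.677%. Both AKO libraries lay above both controls for 3 of the 10 genes (Psat1, Psph and Chac1), against 25.1% of all genes, and below both for 1 (Atf4), against 24.9%. Unadjusted limma p-values under 0.05 were found for the same 3 of 10 genes, and for 17.7% of the 14466 (2564 genes).

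**Figure D1:**
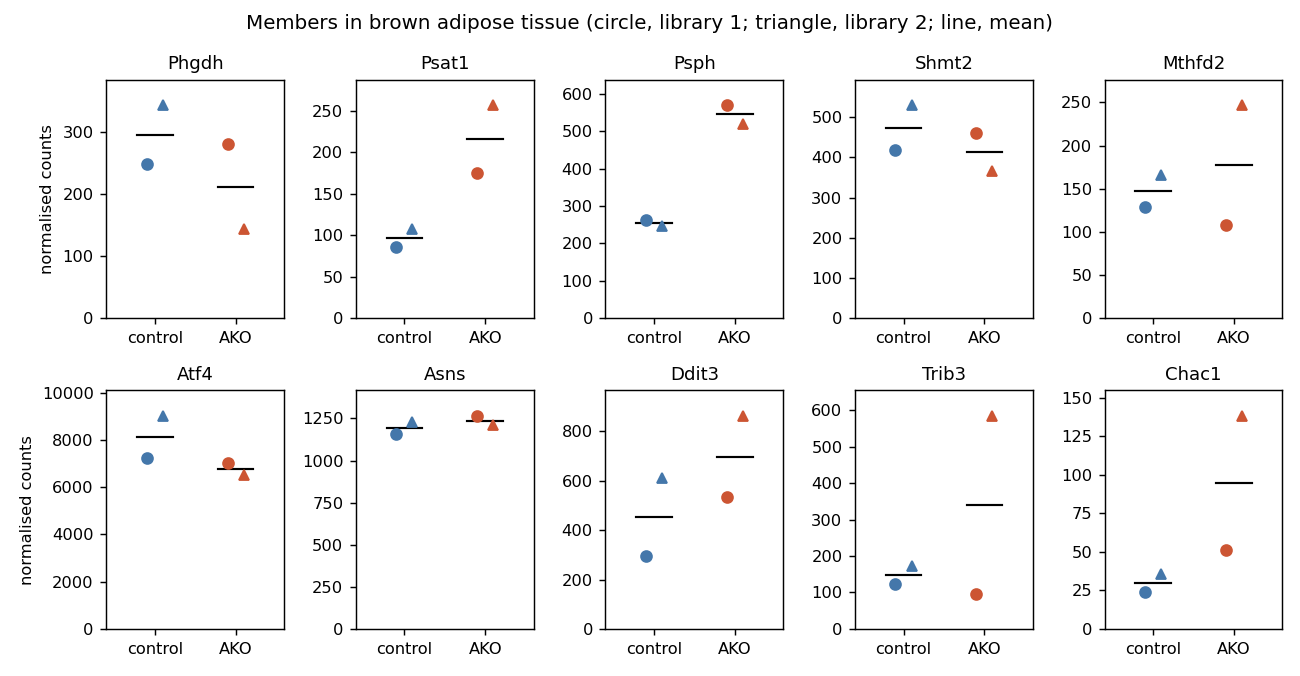
Normalised counts (vertical axis, starting at 0 in each panel) of the 10 genes in the 2 control and 2 AKO libraries of BAT; circles are library 1, triangles library 2 and lines the mean of each group. Psph lies tightly at 520 to 569 against 248 to 263, whereas Trib3 is high in AKO 2 alone, at 584.

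Psph, phosphoserine phosphatase, performs the last step of serine synthesis; its gene lies at chr5:129765558-129787449 on the minus strand (GRCm38). It was at 263 and 248 normalised counts in the controls and at 569 and 520 in the AKO libraries. The groups were well apart and tight within: the AKO libraries differed from each other by 1.09-fold and the controls by 1.06-fold. Means were 255 ± 11.1 and 545 ± 34.7 (SD, n = 2 each), and the log2 fold change was 1.09 ± 0.17 SE, with a 95% interval of 0.69 to 1.48 and a limma adjusted p of 0.0314. The call was lost when any one of the 4 libraries was left out, with limma adjusted p from 0.0744 to 0.267, while the log2 fold change stayed between 1.02 and 1.15. Psph shares 9.45% of the 31-base words of its exons with Cct6a, a chaperonin subunit gene that overlaps it on the opposite strand, and the reads there cannot be told apart if strand was not used. Cct6a itself had a log2 fold change of −0.03 (limma adjusted p = 0.951). The 5 erythroid markers summed to 530 and 588 CPM in the controls and 794 and 781 in the AKO libraries, and the 5 endothelial markers to 661, 716, 634 and 588, so both sums also set the groups apart; their part in the Psph and Psat1 values was not tested.

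Psat1, phosphoserine aminotransferase, supplies the substrate of Psph and lies at chr19:15904678-15947337 on the minus strand. It was at 86.2 and 108 normalised counts in the controls and at 175 and 257 in the AKO libraries. Both AKO values were above both controls, and AKO 2 was the higher by 1.47-fold. The log2 fold change was 1.13 ± 0.27 SE, with a 95% interval of 0.50 to 1.76, and the limma adjusted p was 0.0932. DESeq2 on the recovered whole reads gave a call, with an adjusted p of 0.0253. The authors' deposited table lists a log2 fold change of 1.16 with an adjusted p of 0.0374. Both rest on the same reads, and the submitters' processing notes name DESeq2, so they are not separate support. With edgeR the adjusted p was 0.0844, without a call. Psat1 and Psph made 2 of 10 genes called higher in the authors' deposited table, against 1.46% of its 22721 genes. The same 2 were called higher by DESeq2, against 2.52% of the genes tested, and Psph alone by edgeR, against 1.02%.

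Phgdh, phosphoglycerate dehydrogenase, is the entry step of the pathway and lies at chr3:98313170-98339990 on the minus strand. It was at 249 and 344 normalised counts in the controls and at 281 and 144 in the AKO libraries. AKO 1 fell between the controls and AKO 2 below both, where the brown adipocyte marker sum was also lowest; the part of the cell makeup in this value was not tested. The log2 fold change was −0.54 ± 0.33 SE, with a 95% interval of −1.32 to 0.25 (limma adjusted p = 0.456). Its values are uncertain, since 56.3% of its 31-base words also occur in other annotated genes, with 44.8% in the processed pseudogene Gm7901. Summed over Phgdh, Psat1 and Psph, CPM values were 38.5 and 43.1 in the controls and 60.1 and 55.6 in the AKO libraries. Psph alone made up 16.9 and 15.3 of this in the controls and 33.4 and 31.4 in the AKO libraries. The higher sum therefore mostly restates the Psph values and says nothing separate about the pathway.

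Neither mitochondrial enzyme was called in BAT, and both overlapped between the groups. Shmt2, mitochondrial serine hydroxymethyltransferase at chr10:127517123-127522444 on the minus strand, was at 418 and 530 normalised counts in the controls and 461 and 367 in the AKO libraries. The AKO values lay on either side of the lower control (log2 fold change −0.19 ± 0.20 SE, limma adjusted p = 0.670). Mthfd2, the mitochondrial methylenetetrahydrofolate dehydrogenase at chr6:83305691-83325908 on the minus strand, was at 128 and 166 in the controls and 108 and 247 in the AKO libraries. AKO 1 was the lowest of the 4 libraries and AKO 2 the highest, a 2.28-fold gap within the group. The log2 fold change was 0.16 ± 0.39 SE (limma adjusted p = 0.871), and it became −0.43 without AKO 2 and 0.75 without AKO 1.

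The promoters were searched for the core of the C/EBP-ATF response element, the type of site that Atf4 binds with a C/EBP partner. The motif was TGATGNAA, searched on both strands (TTNCATCA on the reverse) in the RefSeq promoters of GRCm38.p6, from 250 bases before to 50 after each start. All 10 genes were matched, through 11 promoters, and 3 held the motif: Asns, Chac1 and Trib3. Among all 27025 genes with such promoters, 4.51% held it (3.97% of the 32851 promoters), and a match is a description of letters, not of binding. The matches before the RefSeq start are shown, 2 in number, because their genes differed in BAT, Asns being even across the libraries and Chac1 above both controls in both AKO libraries. The motif is in capitals, with flanking bases in lower case, read 5′ to 3′ along the gene's strand.
Asns, chr6:7693214-7693243, minus strand: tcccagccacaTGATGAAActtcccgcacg
Chac1, chr2:119351038-119351067, plus strand: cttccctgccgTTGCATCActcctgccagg
The match begins at −23 from the RefSeq start site in Asns and, on the reverse strand, at −193 in Chac1. RefSeq starts and the gene ends of the deposited tables differ: by the latter the Asns match lies inside the gene, and those of Chac1 and Trib3 lie before it, although the Trib3 match follows its RefSeq start. No match in the windows of Psph and Psat1 says only that these letters are not in those bases.

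Of the stress response genes, Atf4, the transcription factor at the centre of the response, is known to be controlled largely at translation; it lies at chr15:80255184-80257541 on the plus strand. It was at 7243 and 9010 normalised counts in the controls and at 7016 and 6507 in the AKO libraries. Both AKO values were below both controls, but the lower control and the higher AKO library were close. The log2 fold change was −0.26 ± 0.18 SE, with a 95% interval of −0.67 to 0.16 (limma adjusted p = 0.5004). Asns, asparagine synthetase at chr6:7675169-7693254 on the minus strand, is a well-known target of Atf4, with the match printed above near its annotated starts. It was at 1156 and 1227 in the controls and 1265 and 1210 in the AKO libraries, so the groups overlapped. Its log2 fold change, 0.06 ± 0.14 SE, was the closest to 0 of the 10, and the 95% interval was −0.28 to 0.39 (limma adjusted p = 0.879).

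Ddit3 encodes CHOP, a transcription factor induced by endoplasmic reticulum stress, at chr10:127290774-127296288 on the plus strand. It was at 297 and 611 normalised counts in the controls and at 534 and 863 in the AKO libraries, so the lower AKO library lay between the controls. The log2 fold change was 0.67 ± 0.36 SE (limma adjusted p = 0.3903), and it ranged from 0.15 without control 1 to 1.19 without control 2. Ddit3 shares 6.78% of its 31-base words with other annotated genes, among them a second model of its own. Trib3, a pseudokinase and known target of Atf4 and CHOP at chr2:152337422-152344032 on the minus strand, was at 124 and 173 in the controls and at 95.7 and 584 in the AKO libraries. Its AKO libraries stood on either side of both controls, 6.10-fold apart, while the median gene differed by 1.21-fold between them and 8.10% of genes by over 2-fold. The log2 fold change was 0.69 ± 0.72 SE (limma adjusted p = 0.672); it was −0.61 without AKO 2, and 1.99 with a call (limma adjusted p = 0.0367) without AKO 1.

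Chac1, a gamma-glutamylcyclotransferase that breaks down glutathione and the other gene with a printed match, lies at chr2:119351229-119354381 on the plus strand. It was at 23.8 and 35.5 normalised counts in the controls and at 51.5 and 138 in the AKO libraries. Both AKO libraries were above both controls, but they differed by 2.69-fold from each other, and the gene had the fewest reads of the 10, at 26 to 134. The fold of the means was 3.20, with AKO 1 at 1.73 and AKO 2 at 4.66 of the control mean, so it leans on AKO 2. An added count of 0.5 in place of 1 moved the log2 fold change little, to 1.52. With the added count of 1, the log2 fold change was 1.504 ± 0.499 SE, with a 95% interval of 0.33 to 2.68 (limma adjusted p = 0.183). Without AKO 2 it was 0.80 and without AKO 1 it was 2.21. The authors' deposited table lists 1.68 with an adjusted p of 0.0758.

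AKO 2 was the highest or lowest of the 4 BAT libraries for 8 of the 10 genes, against 53% of all genes tested. Psat1, Mthfd2, Ddit3, Trib3 and Chac1 were each highest in AKO 2, and Phgdh, Shmt2 and Atf4 were each lowest there. Over the 10 genes the median log2 fold change was 0.41, against 0.01 over all genes tested. Without AKO 2 it was 0.03, with 5 of 10 genes positive, against 7137 of all 14024 genes then tested. Without AKO 1 it was 0.88, without control 1 it was 0.08 and without control 2 it was 0.64. AKO 2 also had the lowest brown adipocyte marker sum and the highest fibroblast and preadipocyte sum, and the part of either in these values was not tested. Psph, at 569 and 520, was about as high in AKO 1 as in AKO 2.

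In cultured cells treated with 4-OHT, Chac1 was the only one of the 10 genes past 1.5-fold, and most of the others were slightly higher. With 1 library per treatment there is no replicate check and no test; the 95% intervals below come from the counts and cover counting error only. Past 1.5-fold higher was 1 of 10 genes, against 4.21% of the 13969 genes measured, and past 1.5-fold lower 0 of 10, against 6.12%. Chac1 had 357 reads with ETOH and 618 with 4-OHT, a ratio after TMM scaling of 1.80 (interval 1.57 to 2.05). Ddit3 followed with 561 and 722 reads and a ratio of 1.34 (interval 1.19 to 1.49). Trib3 had 747 and 931 reads, a ratio of 1.29 (interval 1.17 to 1.43). These 3 stress response genes had the highest ratios of the 10, each with an interval above 1. The intervals of Psat1, Shmt2 (1.08 to 1.23) and Asns (1.08 to 1.19) were also above 1.

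The serine enzymes were at 1.03 to 1.18 of ETOH with 4-OHT. Psph had 432 and 472 reads (ratio 1.13, interval 0.993 to 1.29), a value that counting error alone does not separate from 1. Psat1 had 1755 and 1989 reads (ratio 1.18, interval 1.10 to 1.25). Phgdh had 1418 and 1403 reads (ratio 1.03, interval 0.953 to 1.11), and its log2 ratio of 0.04 turned to −0.03 when libraries were scaled by total counts. Among the others, Shmt2 was at 1.15, Mthfd2 at 1.05, Asns at 1.14 and Atf4 at 0.996 of ETOH. The same cultures differed in their markers: the brown adipocyte sum was 650 with ETOH and 1274 with 4-OHT, the fibroblast and preadipocyte sum 12110 and 10580, and the macrophage sum 740 and 475 CPM. Cidea, a lipid droplet protein of brown adipocytes, was at 1.76-fold and Ucp1, the uncoupling protein, at 1.11-fold. Dio2, also in the brown adipocyte sum, had 243 and 217 reads (log2 ratio −0.11), so not every marker in that sum rose. The part of these differences in the Chac1, Trib3 and Ddit3 values was not tested.

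With siRNA against Setdb1, the 10 genes stayed close to the control. None was called, against 0.0394% of the 15224 genes tested (6 genes), and none was past 1.5-fold in the same direction in both siSetdb1 libraries, against 5.81%. The fit takes the single siNC library to have the spread of the siSetdb1 pair, which leaves 1 degree of freedom per gene before limma shares variance across genes. Counts of the 10 called were also 0 with edgeR and 0 with DESeq2, and 1 gene, Shmt2, had an unadjusted limma p under 0.05 (0.0488, adjusted 0.941). Psph was at 905 normalised counts with siNC and 945 and 869 with siSetdb1, on either side of the control, with a limma 95% interval of −0.29 to 0.29 for the log2 fold change. Psat1 was at 1850 with siNC and 1441 and 1864 with siSetdb1, and its interval was −0.50 to 0.15. Chac1 was at 148 with siNC and 118 and 152 with siSetdb1, with the widest interval of the 10, −0.70 to 0.40. For each of these 3 genes siNC lay between the siSetdb1 libraries.

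The remaining genes in the siRNA experiment lay within a narrow band. Shmt2 was lower in both siSetdb1 libraries, at 2793 and 2472 against 3142 normalised counts (log2 fold change −0.26). Mthfd2 was at 797 and 810 against 877, and Phgdh at 2494 and 2387 against 2336. Atf4 was at 3743 and 3800 against 3825, Asns at 2199 and 2261 against 2304, Ddit3 at 2188 and 2224 against 2145, and Trib3 at 861 and 1023 against 941. The largest of these 7 log2 fold changes in size was that of Shmt2.

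**Figure D2:**
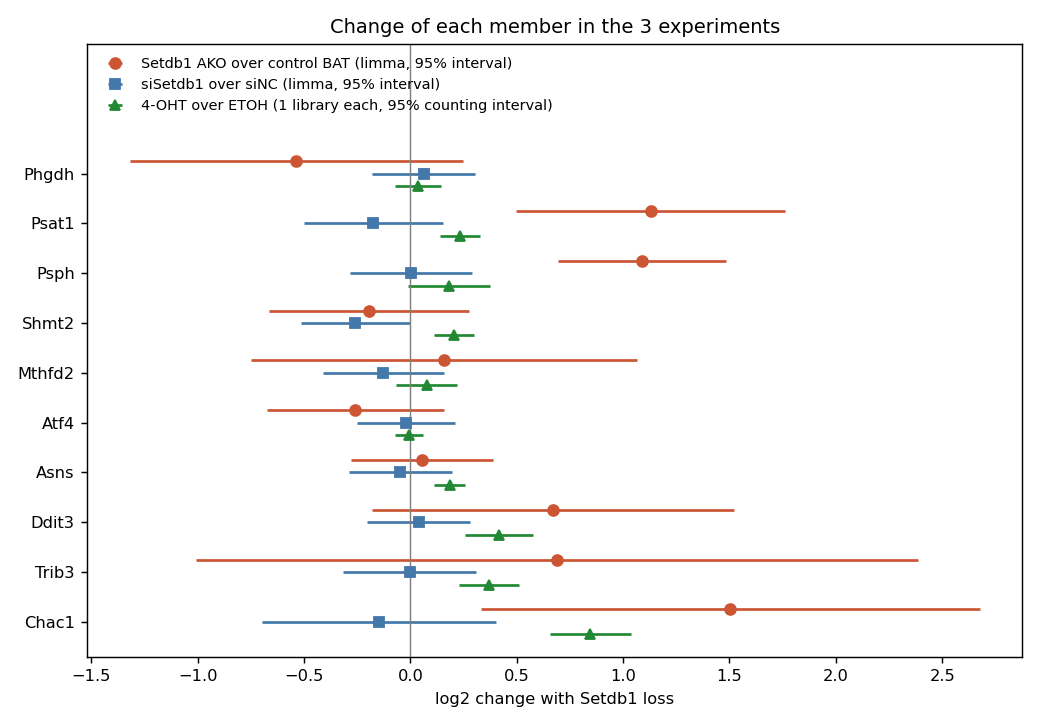
Log2 change of each of the 10 genes (horizontal axis) with Setdb1 loss in BAT (circles), with siRNA (squares) and with 4-OHT (triangles); bars are 95% intervals from limma for the first 2 and 95% counting intervals for 4-OHT. Psat1 and Psph stand at 1.13 and 1.09 in BAT, at 0.23 and 0.18 with 4-OHT and at −0.175 and 0.002 with siRNA. Chac1, not called in BAT, is at 1.504 there, at 0.84 with 4-OHT and at −0.15 with siRNA.

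Levels per length (CPM per kb of the deposited gene length) placed Atf4 first among the 10 genes in all 9 libraries, at 167 to 236 in BAT and 54.5 to 89.96 in culture. The experiments were processed separately, so levels across them are descriptions. In the BAT controls Asns came next, at 27.2 and 27.7, then Ddit3 at 11.2 and 21.99, and Chac1 was lowest, at 0.938 and 1.34. Psph was at 3.91 and 3.53 in the BAT controls, 7.71 and 7.25 in AKO, 3.34 and 3.61 with ETOH and 4-OHT, and 11.2 to 12.2 in the siRNA libraries. The control BAT and the 4-OHT experiment thus held Psph at much the same level, AKO BAT about 2-fold above them, and the siRNA cells higher still. Phgdh was at 3.51 to 8.53 in BAT, 18.7 and 19.1 in the 4-OHT experiment and 51.6 to 55.9 in the siRNA cells, an order without overlap. It was the fifth of the 10 genes in both BAT controls and the last in AKO 2. Psat1 ran the same way, from 1.30 to 3.65 in BAT, through 13.8 and 15.5, to 18.9 to 24.5 in the siRNA cells. Chac1 in AKO 2 (5.10) reached the level of the siRNA cells (4.00 to 5.17), and the 4-OHT experiment was above both (7.29 and 12.5).

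**Figure D3:**
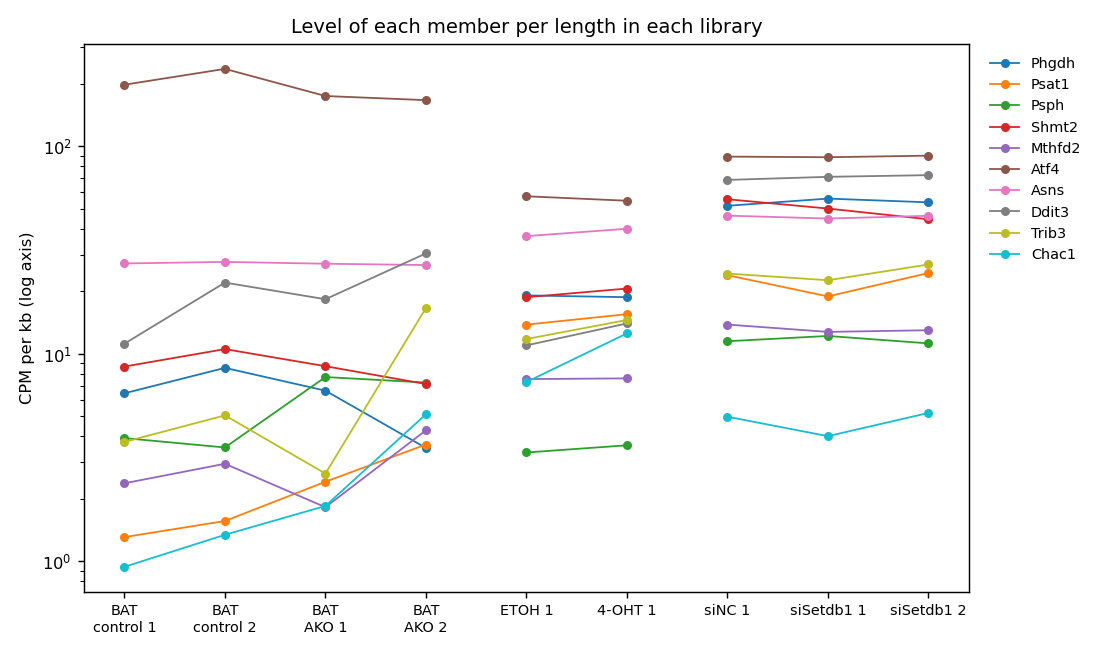
Level per length, in CPM per kb (log axis), of each of the 10 genes in each of the 9 libraries; lines join the points of 1 gene within an experiment only to make it visible. Atf4 is on top everywhere, Phgdh and Psat1 are far lower in BAT than in cultured cells, and Trib3, Chac1 and Mthfd2 stand out in AKO 2.

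Other genes of the pathways were read from lists, whose counts stand against the shares over all genes tested in BAT: 25.1% above both controls, 24.9% below both and 17.7% with an unadjusted limma p under 0.05. Their DESeq2 calls stand against 651 of all 14466 genes called either way by DESeq2. Of 27 other serine, glycine and folate one-carbon genes tested in BAT, 1 was called higher and none lower, with a median log2 fold change of 0.26; 12 had both AKO libraries above both controls and 4 had both below, and 6 had an unadjusted limma p under 0.05. The called gene was Aldh1l1, a cytosolic 10-formyltetrahydrofolate dehydrogenase that oxidises one-carbon units. It was at 629 and 542 normalised counts in the controls and at 1129 and 1164 in the AKO libraries, well apart (limma log2 fold change 0.97, SE 0.16, adjusted p = 0.0350); like Psph it lost its call when any one library was left out (limma adjusted p 0.0611 to 0.302). Its ratio with 4-OHT was 1.76 (1278 and 2166 reads, interval 1.64 to 1.89), and it was at 1754.5 with siNC and 1539 and 1610 with siSetdb1. Aldh1l2, its mitochondrial counterpart, was at 4.59 and 13.2 in the controls and 26.8 and 28.9 in the AKO libraries (log2 fold change 1.69, limma adjusted p = 0.196). Shmt1, the cytosolic counterpart of Shmt2, had a log2 fold change of 0.13 (limma adjusted p = 0.706).

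A few genes were named after their values were seen, because DESeq2 on the recovered reads called them in BAT although limma did not, so their values restate that choice. Slc1a4, a neutral amino acid transporter that carries serine, was at 160 and 69.0 normalised counts in the controls and at 419 and 360 in the AKO libraries (log2 fold change 1.88, limma adjusted p = 0.0656). Sfxn1, a mitochondrial serine carrier, was at 1101 and 816 in the controls and 1662 and 1829 in the AKO libraries (log2 fold change 0.88, limma adjusted p = 0.0719). Vldlr, a lipoprotein receptor and known stress response target, and Pdia6, a protein disulphide isomerase, were at log2 fold changes of 0.77 and 0.68 (limma adjusted p = 0.0912 and 0.0692).

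None of 16 genes for the eIF2 kinases, the eIF2 phosphatase and eIF2B was called in BAT, with a median log2 fold change of 0.08; edgeR and DESeq2 also called 0, and 4 had an unadjusted limma p under 0.05. The eIF2 kinase genes Eif2ak3, which senses endoplasmic reticulum stress, and Eif2ak4, which senses amino acid shortage, were at −0.22 and 0.34. Ppp1r15a, the phosphatase subunit that ends the response, was below both controls in both AKO libraries, at 1988 and 1949 against 2332 and 3290 normalised counts (limma adjusted p = 0.245). None of 29 other Atf4 and CHOP targets and partners was called by limma or edgeR, while DESeq2 called 2 and 7 had an unadjusted limma p under 0.05; their median was 0.04, 6 had both AKO libraries above both controls and 7 had both below. The list's median changed sign with 1 library, at −0.25 without AKO 2 and 0.26 without AKO 1, as Trib3 did. Among them Sesn2, a stress-induced inhibitor of growth signalling, had a log2 fold change of −0.49 (limma adjusted p = 0.181), and the transcription factors Atf3, Atf5 and Cebpb were at −0.29, −0.12 and −0.28, with no call in limma. The secreted stress factors overlapped widely between the groups: Gdf15 was at 75.2 and 452 in the controls and 125 and 591 in the AKO libraries, and Fgf21 at 31.2 and 97.4 and at 40.1 and 121. Slc7a11, the cystine carrier, was at only 7.34 to 16.5 normalised counts in BAT.

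None of 20 cytosolic aminoacyl-tRNA synthetase genes (median log2 fold change 0.03), 20 genes of the endoplasmic reticulum unfolded protein response (0.32) or 12 mitochondrial chaperone and protease genes (0.05) was called in BAT by limma or edgeR. DESeq2 called 0, 1 and 0 of them, and unadjusted limma p-values under 0.05 were found for 2, 10 (9 higher, 1 lower) and 0. In the unfolded protein response list, 12 genes had both AKO libraries above both controls and 3 had both below, and the median lay between 0.27 and 0.37 with any one library left out. Hspa5, its main chaperone, was at 8535 and 10566 in the controls and 9384 and 9437 in the AKO libraries, with groups that overlapped, and Hspd1, a mitochondrial chaperone, had a log2 fold change of −0.07. With 4-OHT, the median log2 ratio was 0.26 over the unfolded protein response list, with 18 of 20 positive. It was 0.19 over the 10 genes and 0.01 over all genes. The share of positive genes over all genes was not counted for 4-OHT, so the counts of positive genes are descriptions only. Some other lists were shifted too: the mitochondrial chaperone and protease list was at 0.25 (11 of 12 positive). The aminoacyl-tRNA synthetase list was at 0.16 (17 of 20 positive). The remaining lists lay nearer the median of all genes. The other serine, glycine and folate genes were at 0.01 (14 of 26 positive) and the eIF2 kinase, phosphatase and eIF2B genes at 0.04 (9 of 16). The other Atf4 and CHOP targets and partners were at 0.07 (16 of 27). Hspa5 was at a ratio of 1.41 and Hspd1 at 1.13. In the list of other Atf4 and CHOP targets, 3 of 27 genes measured passed 1.5-fold with 4-OHT, near the 10.3% of all genes: Slc7a11 was lower, at a ratio of 0.587 (1393 and 788 reads), and Ero1l and Vldlr, also named after their values were seen, were higher, at log2 ratios of 0.67 and 0.62. With siRNA no gene of these 6 lists was called by limma, edgeR or DESeq2, 0 to 2 genes per list had an unadjusted limma p under 0.05 (5.06% of all genes), and their medians ran from −0.11 to 0.09.

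**Figure D4:**
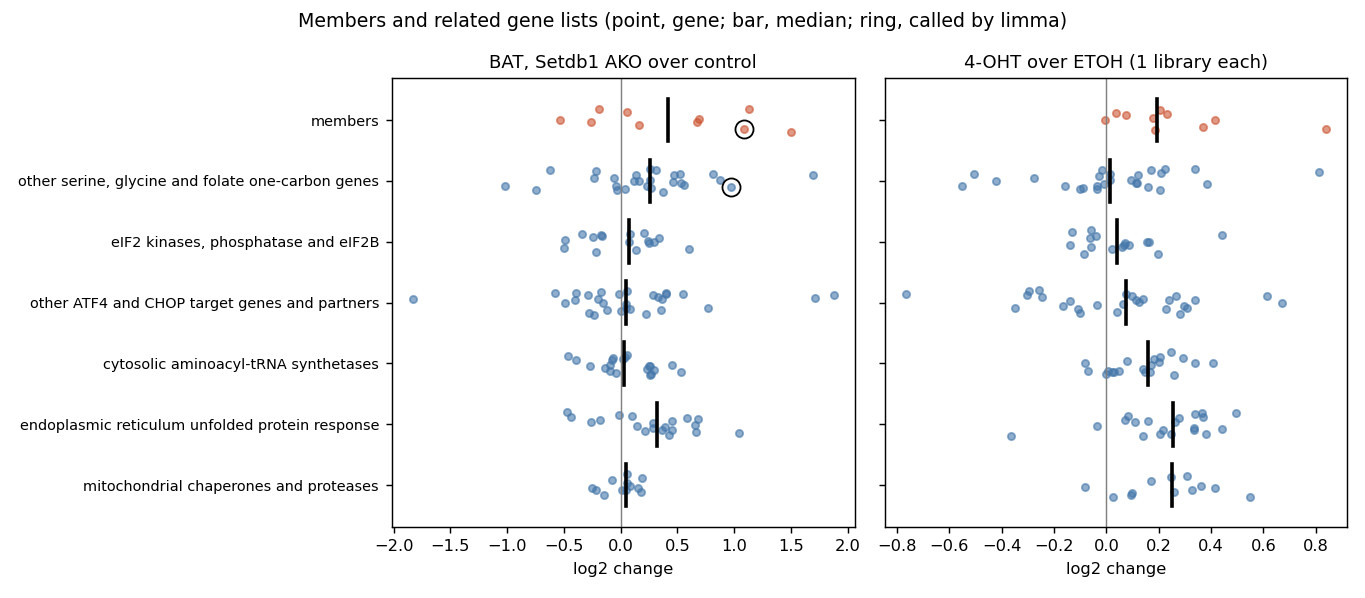
Log2 change (horizontal axis) of each gene of the 10 and of the related lists in BAT (left, limma) and with 4-OHT (right, 1 library each); points are genes, bars the median of each list and rings the genes called by limma. In BAT the called genes are Psph and Aldh1l1. In both panels the medians of the 10 genes (0.41 and 0.19) and of the unfolded protein response list (0.32 and 0.26) lie to the right of 0. The medians of all the other lists are above 0 too, though some only just. The other serine, glycine and folate genes are at 0.26 in BAT but at 0.01 with 4-OHT. The other lists in BAT are at 0.03 to 0.08. With 4-OHT, the mitochondrial chaperone and protease list is at 0.25. Over all genes the median is 0.01 in both.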

How the data were processed

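Poly(A)-selected libraries were made with the NEBNext Ultra II RNA kit, per the labels' protocols. STAR 2.7.10a, Trimmomatic 0.39, DESeq2 1.36.0 and featureCounts 2.0.3, with the build GRCm38 (mm10), are listed without their roles in the submitters' processing notes. The annotation release, strand setting and treatment of reads that map to several places are not given in the sources used here. For BAT and siRNA the authors deposited a scaled signal per gene (by its values, reads times 1 factor per library; called normalised counts here); every value above 0 was a whole multiple of the library's step within 0.05 reads, so whole reads were recovered. For 4-OHT the authors deposited raw counts with a scaled value beside them. The authors' deposited tables also hold log2 fold changes and p-values, of which those for BAT are quoted as theirs, and the gene lengths in bases used for levels. The siRNA libraries came in 2 tables with the siNC library in both (same reads in 19381 of 19381 genes), which was counted once; the tables were joined with a factor of 1.0024.

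The main test was limma 3.58.1 (R 4.3.3; lmFit, eBayes with trend) on log2(normalised count + 1), within BAT and within siRNA, for genes with at least 10 normalised counts in 2 BAT libraries or in 1 siRNA library, with Benjamini-Hochberg adjustment over all genes tested and a threshold of 0.05. For 4-OHT against ETOH, TMM-scaled log2 ratios with a prior count of 2 were taken where either library held 50 counts or more; 95% intervals are exact and conditional on the total. Alternatives were edgeR 4.0.16 and DESeq2 1.42.0 on recovered reads, other pseudocounts, filters and scalings, each library left out, and a replicate block. The tests were checked on simulated data. The labels speak of mice for BAT but do not say which library came from which animal, nor whether cultures were separate, so p-values measure the spread between these libraries. The 10 genes, the gene lists and the tests were chosen with earlier results of these data known. Named genes were the 10, Setdb1, every listed gene called in BAT or siRNA, and a fixed set of examples from the lists and marker genes (Ucp1, Cidea, Adipoq, Plin1). Adipoq and Plin1 were at 12777 to 21358 and 17524 to 22246 normalised counts in BAT.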

Additional observations from a re-analysis of the deposited data

Results flagged for a closer look

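For 13 of the named genes, every library with Setdb1 loss moved one way in one experiment and the opposite way in another. The experiments were normalised separately, the 4-OHT experiment has 1 library per treatment, and none of these differences was tested; most of the changes are small. The same held for 15.0% of all genes between BAT and siRNA, 22.1% between BAT and 4-OHT, and 34.4% between siRNA and 4-OHT. These shares are per pair of experiments, whereas the 13 genes were opposite in any pair. The count of 13 therefore cannot be set against them, and it is not read as a result about the named genes. Values are log2 changes with Setdb1 loss. Shmt2 was at −0.26 with siRNA and 0.20 with 4-OHT. Mthfd2 was at −0.13 with siRNA and 0.08 with 4-OHT. Asns was at −0.047 with siRNA and 0.18 with 4-OHT. Aldh1l1 was at 0.97 in BAT and 0.81 with 4-OHT, but −0.16 with siRNA. Shmt1 was at 0.13 in BAT, −0.40 with siRNA and −0.42 with 4-OHT. Eif2ak4 was at 0.34 in BAT, −0.06 with siRNA and −0.14 with 4-OHT. Ppp1r15a was at −0.49 in BAT and −0.085 with siRNA, and at 0.15 with 4-OHT. Sesn2 was at −0.49 in BAT, 0.07 with siRNA and 0.30 with 4-OHT. Atf5 was at −0.27 with siRNA and 0.31 with 4-OHT. Cebpb was at −0.28 in BAT and 0.07 with 4-OHT. The adipocyte genes Ucp1, Adipoq and Plin1 were at −0.15, −0.16 and −0.20 with siRNA and at 0.16, 0.27 and 0.41 with 4-OHT.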

How the results depend on the processing

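In BAT, 243 genes and 1 of the 10 were called. Without a filter on low values these counts were 11 and 0, with DESeq2 651 (364 higher, 287 lower) and 2, and with each library left out in turn 22 to 157 and 0 to 1. Leaving out a library left 1 sample in a group, which was assumed to vary like the other group. Psph was not called without the filter (limma adjusted p = 0.206). Log2 fold changes changed sign for Mthfd2 (−0.03 without control 1; −0.43 to 0.75 over the libraries left out) and for Trib3 (−0.61 to 1.99). The replicate numbers of the titles did not pair the BAT libraries (correlation of deviations −0.02 over 14466 genes); with a replicate block 299 genes were called, and of the 10 again 1, Psph. With siRNA, 6 genes were called, against 0 without the filter (770 had an unadjusted limma p under 0.05 with it), 29 with a filter of at least 50, 19 with TMM scaling, 37 with edgeR and 11 with DESeq2; none of the 10 was called in any of these, and Trib3 turned from −0.00 to 0.00 (0.0036) with DESeq2. With 4-OHT, Chac1 alone was past 1.5-fold under every alternative run. Only 2 libraries per BAT group, and 1 to 2 in culture, limit what could be detected, and for Chac1 the depth does too, at 26 to 134 reads in BAT.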
